A study of Homo sapiens with 18 samples.

Results

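Aminoacyl-tRNA synthetases join each amino acid to its transfer RNA, the step that sets the reading of the genetic code. Human cells hold 2 sets of these enzymes, one for translation in the cytosol and one, also encoded in the nucleus, for translation inside mitochondria. The genes described here were taken by symbol from a list of 36 synthetase genes, of which 35 had a row among the 30954 genes of the H2052 count table. SARS2, the mitochondrial seryl-tRNA synthetase, had no row. The 35 comprised 20 cytosolic and 15 mitochondrial synthetases, the latter being those whose symbol ends in 2. The list was drawn up by gene family and symbol, with no threshold on a measured value, although earlier results of these data were known. KARS and GARS, placed in the cytosolic group, are known to give rise to the mitochondrial enzymes for lysine and glycine as well. Many cytosolic synthetase genes are known targets of ATF4, a transcription factor of the amino acid stress response.

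PolyA RNA was sequenced from 2 human mesothelioma cell lines, H2052 and H226, after 24 h in 1 µM VT107, an inhibitor of TEAD palmitoylation, or in the solvent DMSO. H2052 cells carry mutations of the Hippo pathway genes NF2 and LATS2, in the parental and in the NF1 mutant cells alike, and H226 cells are NF2-/-. NF1, which encodes the RAS inhibitor neurofibromin, was mutated with Cas9 and a lentiviral guide, and whether the mutant cells were a pool or a clone is not given in the sources read. The groups were parental H2052 in DMSO, parental H2052 in VT107, NF1 mutant H2052 in DMSO, NF1 mutant H2052 in VT107, H226 in DMSO and H226 in VT107, with 3 libraries in each. The study calls these biological replicates.

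Libraries held 10950284 to 13418485 counts in parental H2052 cells and 3285363 to 5489092 in NF1 mutant cells. The column names of parental libraries carry a date and those of the mutant libraries do not, so genotype and library set cannot be told apart. NF1 itself was at 361 to 867 counts in parental libraries and at 29 to 89 in mutant libraries, which held fewer counts in all. In CPM, the library's count of a gene scaled to a common depth, NF1 was at 26.1 to 67.7 in parental libraries. In mutant libraries it was at 8.22 to 18.0 CPM. WT1, KRT8, KRT18 and KRT19, markers of mesothelial cells, were present in all 12 libraries, whereas KRT5 was at 0 and CALB2 did not exceed 8.23 CPM. UPK3B, another of the 10 markers listed, did not exceed 1.46 CPM, and MSLN, PDPN and KRT7 were present in all 12. The leukocyte genes CD53, TYROBP and CD3E were at 0 in all 12 libraries, and the 8 leukocyte markers summed to 2.81 to 26.1 CPM, most of it CD68 in each library. The endothelial marker VWF was at 0 and CDH5 did not exceed 0.144 CPM. One library stood apart, NF1 mutant VT107 number 1, whose median correlation with the other H2052 libraries was 0.736 against 0.878 to 0.919 for the rest (8925 genes). Both parental number 3 libraries also differed from numbers 1 and 2. Their NF1 was at 33.7 CPM in DMSO and 26.1 CPM in VT107, against 55.3 to 67.7 CPM in numbers 1 and 2. Their KRT19 was at 2233 and 2114 CPM, against 1075 to 1348 CPM in numbers 1 and 2 and 2396 to 5301 CPM in mutant libraries. KRT7 was likewise higher in parental number 3 and in mutant libraries than in parental numbers 1 and 2, whereas KRT8 was not. Results that rest on NF1 mutant VT107 number 1 or on the parental number 3 libraries are given with and without them.

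Promoter letters are shown first, because the C/EBP-ATF response element bound by ATF4 is the best known shared feature of this gene family. RefSeq windows (GRCh38.p14) of 250 bases before to 50 after the annotated start were found for 29 of the 35 genes, 16 cytosolic and 13 mitochondrial. DARS, LARS, VARS, YARS, AARS2 and VARS2 had no window and were not searched. The element was searched on both strands as TGATGNAA. It was present in the windows of 7 of the 16 cytosolic and 1 of the 13 mitochondrial genes, against 4.46% of the 27305 genes with a window. Each line gives 30 bases, 5′ to 3′ on the strand of the gene, with the match in capitals. The reverse complement of the search letters appears where the match lies on the other strand.
AARS, chr16:70289675-70289704 (minus strand): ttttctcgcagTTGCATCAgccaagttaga
CARS, chr11:3057407-3057436 (minus strand): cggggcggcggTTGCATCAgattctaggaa
GARS, chr7:30594834-30594863 (plus strand): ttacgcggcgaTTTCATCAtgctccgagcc
IARS, chr9:92293692-92293721 (minus strand): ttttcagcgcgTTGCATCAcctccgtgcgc
MARS, chr12:57488053-57488082 (plus strand): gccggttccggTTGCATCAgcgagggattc
NARS, chr18:57621804-57621833 (minus strand): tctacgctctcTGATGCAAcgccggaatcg
TARS, chr5:33440956-33440985 (plus strand): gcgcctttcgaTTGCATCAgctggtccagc
YARS2, chr12:32756076-32756105 (minus strand): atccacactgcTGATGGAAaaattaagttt
The cytosolic matches other than those of GARS share the letters TTGCATCA or their reverse complement. The matches of CARS, MARS, IARS, GARS, NARS and TARS lie within 33 bases of the annotated start, that of AARS begins 187 bases before it and that of YARS2 197 bases before it. A match of letters is no measurement of binding.

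Per length of transcript, the cytosolic synthetases were the more abundant set in parental H2052 cells in DMSO. The division by length assumes reads along the whole transcript, which was not checked, and the library kit is not given. Without the division the cytosolic set was also higher, at a mean log2 CPM of 6.48 against 3.89. On the scale of CPM per kilobase of the GENCODE 29 principal transcript, levels ran from 8.93 to 121 in the 20 cytosolic genes (median 28.0) and from 1.41 to 67.0 in the 15 mitochondrial genes (median 5.19). The lysyl-, aspartyl- and threonyl-tRNA synthetases KARS, DARS and TARS led the order at 121, 96.5 and 87.5. CARS2, the mitochondrial cysteinyl-tRNA synthetase, was number 4 at 67.0, and the next mitochondrial gene, TARS2, was number 20. FARSA, the catalytic subunit of the cytosolic phenylalanyl enzyme, stood at 65.2 and its partner subunit FARSB at 30.9. RARS, SARS, CARS, QARS, NARS, MARS, IARS, HARS and GARS lay between 55.2 and 21.7. The lowest cytosolic genes were YARS (18.9), AARS (17.8), LARS (13.7), WARS (13.3), EPRS (10.7) and VARS (8.93). Among mitochondrial genes, TARS2 (12.8), RARS2 (9.87), IARS2 (9.15), YARS2 (7.74), VARS2 (7.37), FARS2 (7.35) and HARS2 (5.19) preceded LARS2, EARS2, NARS2, WARS2, MARS2, AARS2 and PARS2, which lay between 4.64 and 1.41. Of the 34 pairs of neighbours in this order, 28 overlapped over their 3 libraries.

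The first comparison asked how the synthetases differ between NF1 mutant and parental H2052 cells in DMSO. The cytosolic valyl-, aspartyl- and tyrosyl-tRNA synthetase genes VARS, DARS and YARS rose, with FARSB and the mitochondrial TARS2 and WARS2, while LARS, GARS and EPRS fell. These 9 of 35 (6 higher, 3 lower) passed an adjusted p of 0.05 in edgeR's quasi-likelihood test over all 12475 genes tested. Of all those genes 27.4% passed, 12.5% higher and 14.9% lower, so the share of synthetases called was near the background. In bulk RNA, a change in RNA per cell and a change in the share of cells that express a gene cannot be told apart. The groups did not overlap for 15 of the 35 synthetases, against 44.4% of all genes tested.

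**Figure D1:**
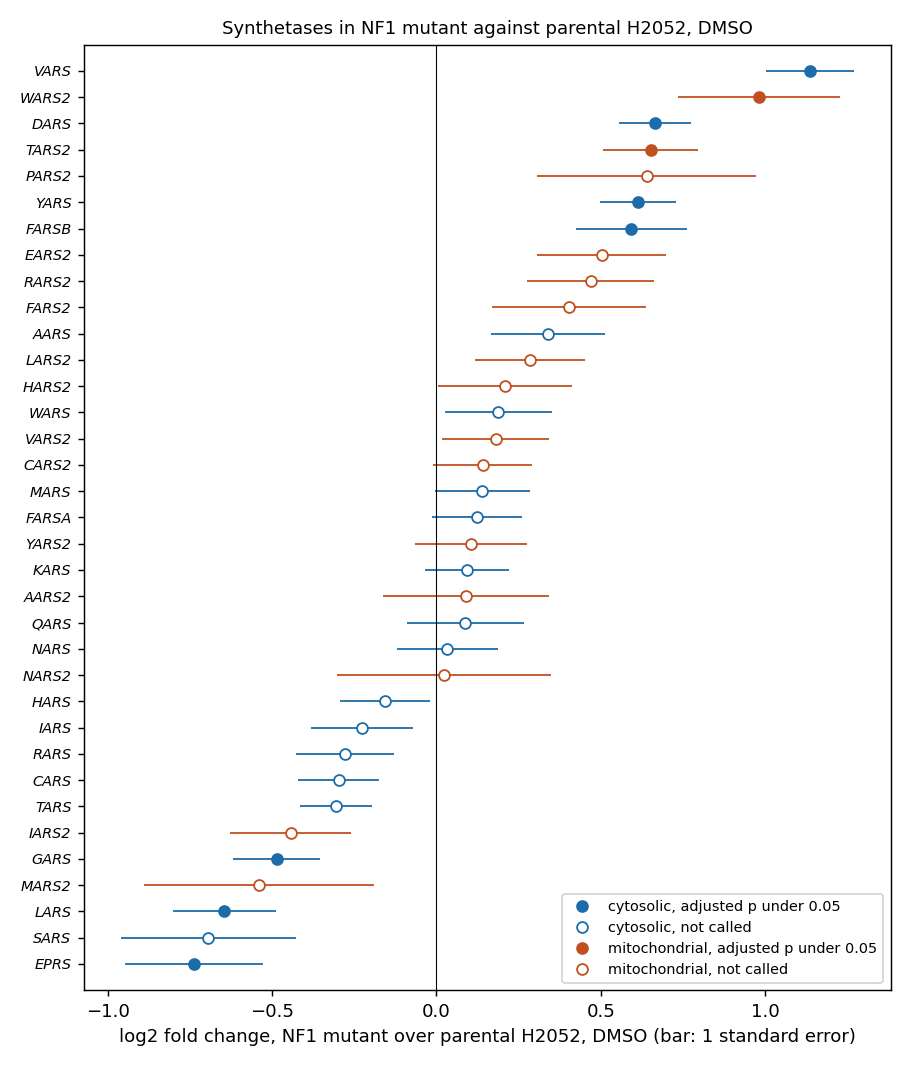
Log2 fold change of each of 35 synthetases in NF1 mutant over parental H2052 cells in DMSO, with bars of 1 standard error, 3 libraries per group. Filled symbols mark the 9 genes with an adjusted p under 0.05, from VARS at 1.14 to EPRS at -0.74, and 13 of the 15 mitochondrial genes (orange) lie above 0.

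VARS, the gene of the cytosolic valyl enzyme, lies at chromosome 6, 31745295 to 31763730 (hg19, minus strand). Its levels were 37.2, 40.9 and 37.4 CPM in parental DMSO libraries and 85.8, 89.5 and 74.5 CPM in mutant DMSO libraries. All mutant values lay above all parental values. The log2 fold change was 1.14 with a standard error of 0.13 and an edgeR adjusted p of 0.000675, the smallest among the synthetases.

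DARS, at chromosome 2, 136664247 to 136743670, encodes the aspartyl enzyme of the multisynthetase complex, an assembly of 8 cytosolic synthetases with scaffold proteins. It stood at 221, 222 and 240.3 CPM in parental and at 346, 369.6 and 353 CPM in mutant libraries in DMSO, again with no overlap. The log2 fold change was 0.67 (standard error 0.11, edgeR adjusted p 0.00315). YARS, the tyrosyl enzyme at chromosome 1, 33240840 to 33283754, had levels of 61.9, 60.6 and 60.8 CPM in parental libraries and 90.1, 94.3 and 91.8 CPM in mutant libraries, with no overlap and a log2 change of 0.61 (standard error 0.12, edgeR adjusted p 0.00553).

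FARSB, the second subunit of the cytosolic phenylalanyl enzyme (chromosome 2, 223435255 to 223521056), was at 119, 111 and 82.6 CPM in parental and at 135, 179 and 149.8 CPM in mutant libraries. It rose by a log2 change of 0.59 (standard error 0.17, edgeR adjusted p 0.0307). Its partner FARSA, with which it forms the active enzyme, was not called, at a log2 fold change of 0.12 and a standard error of 0.14.

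LARS, the leucyl enzyme (chromosome 5, 145492601 to 145562223), has also been described as a sensor of leucine for mTORC1. It was at 74.5, 68.9 and 51.8 CPM in parental and at 41.5, 41.1 and 40.2 CPM in mutant libraries. Every mutant value lay below every parental value, and the log2 fold change was -0.65 (standard error 0.16, edgeR adjusted p 0.0163). EPRS, whose single protein charges both glutamate and proline transfer RNAs (chromosome 1, 220141943 to 220220000), was at 63.4, 60.2 and 36.6 CPM against 32.7, 32.8 and 28.7 CPM. Its parental number 3 value lay close to the mutant values, and the log2 fold change was -0.74 (standard error 0.21, edgeR adjusted p 0.0300). GARS, the glycyl enzyme (chromosome 7, 30634297 to 30673649), was at 62.6, 54.4 and 54.8 CPM against 42.4, 37.4 and 40.9 CPM, a log2 change of -0.49 (standard error 0.13, edgeR adjusted p 0.0260).

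Of the mitochondrial enzymes, TARS2 for threonine and WARS2 for tryptophan were called. TARS2 (chromosome 1, 150459887 to 150480078) was at 36.7, 34.2 and 33.7 CPM in parental and at 60.8, 46.2 and 55.1 CPM in mutant libraries. WARS2 (chromosome 1, 119573839 to 119683294) was at 6.96, 5.62 and 4.74 CPM in parental and at 11.4, 8.75 and 13.6 CPM in mutant libraries. Neither gene had overlapping groups. Their log2 fold changes were 0.65 (standard error 0.15, edgeR adjusted p 0.0114) and 0.98 (standard error 0.25, edgeR adjusted p 0.0186).

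**Figure D2:**
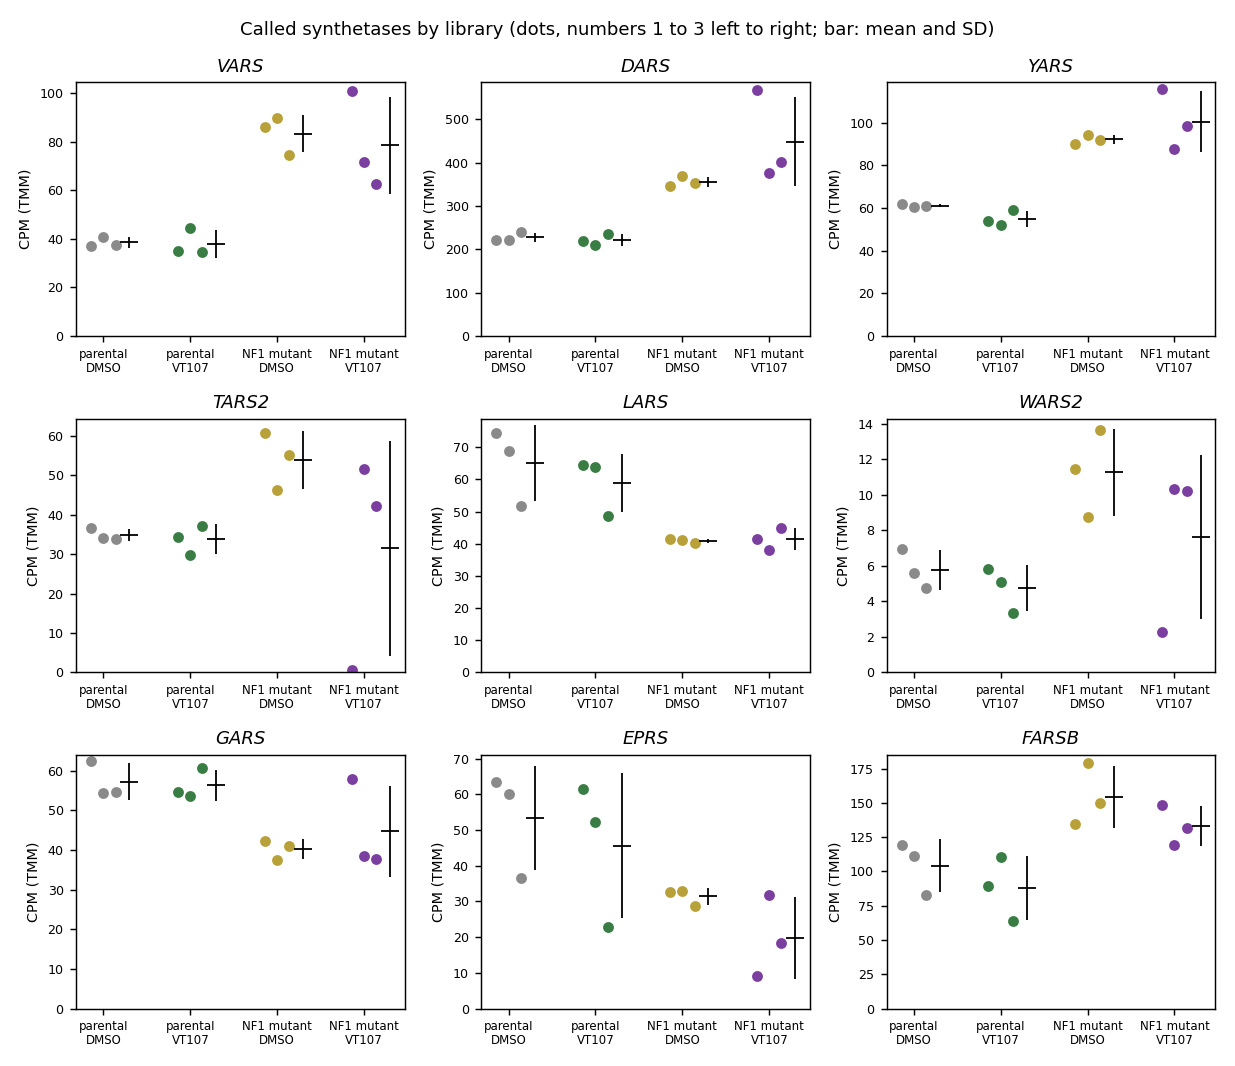
CPM (normalized by trimmed mean of M values) of the 9 synthetases called in DMSO, 1 dot per library in the order of replicate numbers 1 to 3, with the mean and SD of each group of 3. VARS, DARS and YARS are higher in all 6 mutant than in all 6 parental libraries, and NF1 mutant VT107 number 1 stands apart in TARS2, at 0.567 CPM.

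By compartment, 13 of 15 mitochondrial synthetases had a positive log2 fold change with a median of 0.21, against 11 of 20 cytosolic synthetases with a median of 0.06 and a median of -0.01 over all genes tested. IARS2 and MARS2 were the mitochondrial exceptions, at -0.44 (standard error 0.18) and -0.54 (standard error 0.35). EARS2, RARS2, FARS2 and LARS2 had values of 0.50, 0.47, 0.40 and 0.28 and were not called. The counts of calls that follow stand beside 12.5% of all genes tested called higher and 14.9% lower. Within the multisynthetase complex (EPRS, IARS, LARS, MARS, QARS, RARS, KARS and DARS), 1 of 8 rose, 2 fell and the median was -0.07. Among the 19 class I synthetases, which share one catalytic fold, 3 rose and 2 fell. Among the 16 class II synthetases with a row, 3 rose and 1 fell. Both classes were near the 27.4% of all genes called. Of the 13 synthetases listed as ATF4-responsive, VARS and YARS rose and EPRS, GARS and LARS fell. Of the 8 genes with the ATF4 letters in their window, GARS alone was called, and their median log2 fold change was -0.10 against 0.14 in the 21 genes without. The called genes VARS, DARS, YARS and LARS had no window and are in neither group, so this split leaves them out.

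The mean level of each set was also taken per library. On the log2 CPM scale, the cytosolic mean less the mitochondrial mean was 2.57, 2.63 and 2.58 in parental DMSO libraries and 2.34, 2.44 and 2.31 in mutant DMSO libraries, so the groups did not overlap. The cytosolic mean was 6.48 ± 0.0748 (SD, n = 3) in parental and 6.48 ± 0.0347 (SD, n = 3) in mutant cells. The mitochondrial mean was 3.89 ± 0.0797 (SD, n = 3) in parental and 4.11 ± 0.0368 (SD, n = 3) in mutant cells. These means are descriptions of the list and were not tested.

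**Figure D3:**
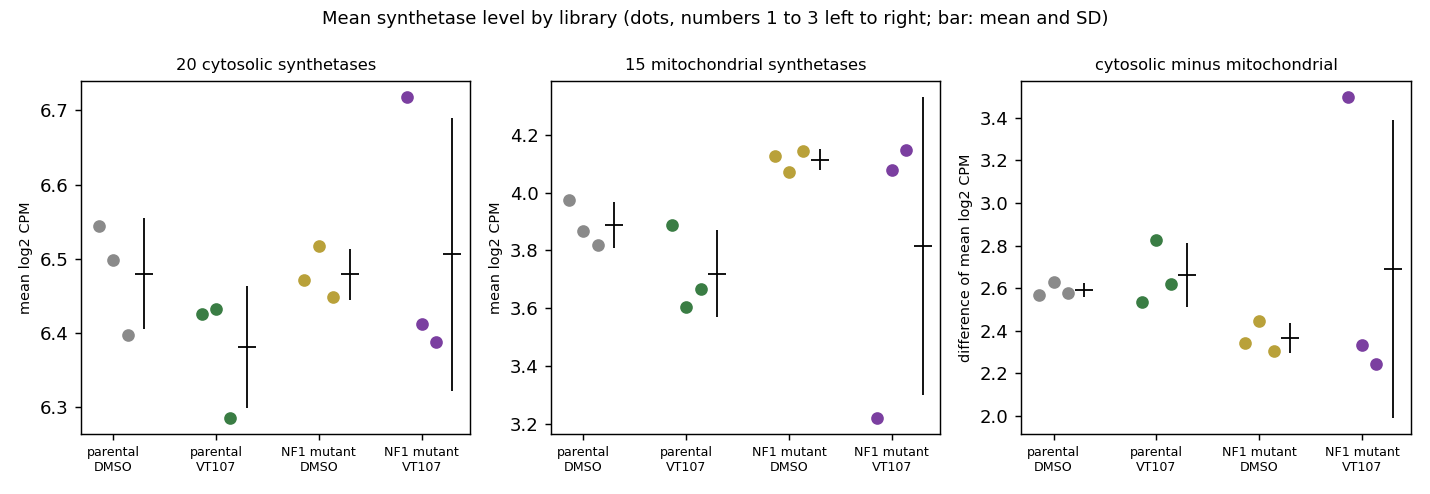
Mean log2 CPM of the 20 cytosolic and 15 mitochondrial synthetases and their difference in each of 12 H2052 libraries, with group mean and SD (n = 3). In DMSO the difference is 2.57 to 2.63 in parental and 2.31 to 2.44 in mutant libraries, and NF1 mutant VT107 number 1 stands alone at 3.50.

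How many synthetases were called depended on single libraries, and so did how many of all genes were called. Without parental DMSO number 3, 22 were called (12 higher, 10 lower), and these held the 9 above and 13 others, while 50.9% of the 12585 genes tested were called (24.7% higher, 26.3% lower). The cytosolic median was then -0.03, with 10 of 20 genes positive, and the mitochondrial median 0.28, with 12 of 15. Among the 13 were SARS at -0.96 (standard error 0.13), AARS at 0.53 (standard error 0.11), FARS2 at 0.62 (standard error 0.18) and RARS at -0.41 (standard error 0.10). Leaving out parental number 2 or mutant number 1 left 3 calls, VARS, DARS and YARS, which kept an adjusted p under 0.05 whichever DMSO library was left out. Leaving out parental number 1 left 6 calls, leaving out mutant number 2 left 5 calls and mutant number 3 left 4. LARS, GARS and EPRS kept an adjusted p under 0.05 without parental number 3 and lost it when any other DMSO library was left out. The voomWithQualityWeights fit called 22 synthetases, and a fit of all 4 H2052 groups called VARS alone. The count of all genes called also rose in the former and fell in the latter. Counts of all genes are given in the section on processing, so the changes in number are not particular to the synthetases. In parental DMSO number 3, the log2 level against its group was correlated with transcript GC content across 33 synthetases (Spearman rho 0.482) and across all 11159 genes (0.402), and in parental VT107 number 3 by 0.504 and 0.458. The fold changes between genotypes had a rho with GC content of 0.259 over the 35 synthetases and 0.226 over all genes. These correlations are across genes of shared libraries, and the part of GC content in the calls was not tested.

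The partners of the synthetases were read against the same background of 12.5% of all genes tested called higher and 14.9% lower. Of 7 scaffolds of the complex and elongation factor subunits that take over charged transfer RNA, 2 rose and 2 fell. AIMP1, a scaffold of the multisynthetase complex, fell by 0.98 on the log2 scale (standard error 0.14, edgeR adjusted p 0.00162), and EEF1B2, a nucleotide exchange subunit, fell by 0.39. EEF1A1, which delivers charged transfer RNA to the ribosome, rose by a log2 fold change of 0.55, and EEF1E1, another component of the complex, by 0.43. Of 5 genes that complete mitochondrial charging, including the amidotransferase subunits QRSL1, PET112 and GATC that make mitochondrial glutaminyl-tRNA, TRNT1 alone was called and fell by 0.62. TRNT1 adds the CCA end to transfer RNA. XPOT, which exports transfer RNA from the nucleus, fell by 0.50, the sole call among 3 genes of editing and export.

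Of 18 genes of the ATF4 stress response, 3 rose and 2 fell, near the 27.4% of all genes called. ATF4 itself had a log2 change of 0.67 (standard error 0.11, edgeR adjusted p 0.00251), and PHGDH and SHMT2, enzymes of serine and glycine synthesis, 1.19 and 0.42. ATF5 fell by 1.43 and TRIB3, a feedback inhibitor of ATF4, fell by 0.76 on the same scale. ASNS and DDIT3, well-known ATF4 targets, had values of -0.17 and 0.17 and were not called. WARS, an interferon-inducible synthetase, had a log2 change of 0.19 (standard error 0.16). Of 11 interferon genes tested, GBP1 fell by 2.28 and PSMB9 rose by a log2 fold change of 0.75.

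The second comparison asked how the synthetases respond to VT107 in parental cells. No synthetase was called, and neither was any other gene (0% of 12891), with 474 genes and 0 synthetases at an unadjusted p under 0.05. This fit did not use the replicate numbers. DESeq2 called 32 genes and voomWithQualityWeights 18, with no synthetase in either. The study itself, with its own fits, reports genes significantly altered by VT107 in parental and, fewer, in NF1 mutant cells. The absence of calls here therefore does not show that VT107 had no effect. Of the cytosolic genes 4 of 20 and of the mitochondrial genes 6 of 15 had a positive log2 fold change, with medians of -0.11 and -0.05, against 0.01 over all genes. FARSA was at 116, 112 and 127 CPM in DMSO and at 97.1, 93.6 and 92.5 CPM in VT107. Its groups did not overlap, and its log2 fold change was -0.31 (standard error 0.14, edgeR adjusted p 0.999). LARS2 and YARS were the other 2 of 35 genes whose groups did not overlap, which held for 10.5% of all genes tested. Their log2 fold changes were -0.17 and -0.14.

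MARS2, the mitochondrial methionyl enzyme, had the lowest log2 fold change. It was at 6.48, 5.69 and 3.13 CPM in DMSO and at 4.11, 1.97 and 0.866 CPM in VT107, with overlapping groups. The log2 fold change was -1.12 (standard error 0.55, edgeR adjusted p 0.999). NARS2, the mitochondrial asparaginyl enzyme, was at 10.5, 9.94 and 4.65 CPM against 7.87, 5.46 and 2.24 CPM, a log2 change of -0.67 (standard error 0.49, edgeR adjusted p 0.999). CARS, with 94.9, 95.6 and 103.5 CPM against 107, 98.1 and 133 CPM, had a log2 change of 0.22 (standard error 0.18). The remaining 31 synthetases lay between -0.27 for WARS2 and 0.25 for FARS2.

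With the replicate number as a block, 1.67% of all genes were called and still no synthetase. In that fit 2280 genes had an unadjusted p under 0.05, with 1 cytosolic and 2 mitochondrial synthetases among them. MARS2 then had a log2 change of -1.22 (standard error 0.31, edgeR adjusted p 0.0883), NARS2 -0.72 (0.133) and FARSA -0.31 (0.168), the values in brackets being edgeR adjusted p. Without both number 3 libraries, 0.329% of 13381 genes and no synthetase were called, and MARS2 had a log2 change of -0.93 (standard error 0.34).

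The third comparison was the same in NF1 mutant cells. With all libraries, 33 synthetases passed the filter, MARS2 and TARS2 being too low in 1 library, and none was called, as was no gene of the 11605 tested (0%, with 612 genes and 0 synthetases at an unadjusted p under 0.05). DESeq2 called 20 genes and voomWithQualityWeights 164, again with no synthetase. The AARS gene, of the alanyl enzyme, had the smallest unadjusted p. It was at 82.4, 77.9 and 72.1 CPM in DMSO and at 185, 85.9 and 102.4 CPM in VT107, with a log2 change of 0.68 (standard error 0.32, edgeR adjusted p 0.774). CARS was at 75.1, 83.6 and 77.2 CPM in DMSO and at 251, 79.7 and 87.5 CPM in VT107. NARS was at 87.2, 93.4 and 88.4 CPM against 45.6, 78.0 and 71.1 CPM, and QARS at 100.5, 98.5 and 95.7 CPM against 164, 103 and 123 CPM. In each case the first value in VT107, from the library that stands apart, was the farthest from DMSO. The groups did not overlap for AARS, NARS and QARS, among 5 of 33 synthetases against 15.9% of all genes tested.

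That library, VT107 number 1, held other extremes. TARS2 was at 2 counts (0.567 CPM) there and at 51.7 and 42.1 CPM in the other 2 VT107 libraries. IARS2 was at 2.27 CPM against 33.9 and 26.0, and EPRS at 9.07 against 31.8 and 18.4. VARS2 was at 96.1 CPM against 27.8 and 35.1, and MARS2 at 0 counts, which allows up to 3. Its log2 level against its group had a Spearman rho with transcript GC content of 0.519 over 33 synthetases and 0.441 over all 11159 genes. Its cytosolic mean less mitochondrial mean was 3.50, against 2.33 and 2.24 in the other 2 libraries.

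Without VT107 number 1, all 35 synthetases were tested and none was called, against 1.59% of 12443 genes. FARSA came closest, and its sign turned. It was at 113, 143 and 125 CPM in DMSO and at 76.8 and 91.6 CPM in VT107, with a log2 change of -0.59 (standard error 0.14, edgeR adjusted p 0.0547). With VT107 number 1, at 278 CPM, the log2 fold change was 0.22 (standard error 0.49). FARSB had a log2 change of -0.30 (standard error 0.14), VARS -0.30 (0.14), AARS 0.28 (0.14) and NARS2 -0.64 (0.31). With numbers 2 and 3 alone, 10 of 20 cytosolic and 7 of 15 mitochondrial genes were positive, with medians of -0.03 and -0.02. With all libraries 13 of 20 cytosolic and 6 of 13 mitochondrial genes tested were positive, with medians of 0.12 and -0.04, so the sign of the cytosolic median turned with 1 library. In the 18 genes of the ATF4 stress response, DDIT4 then rose by a log2 fold change of 1.92 and SLC3A2, a subunit of amino acid transporters, fell by 0.67.

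**Figure D4:**
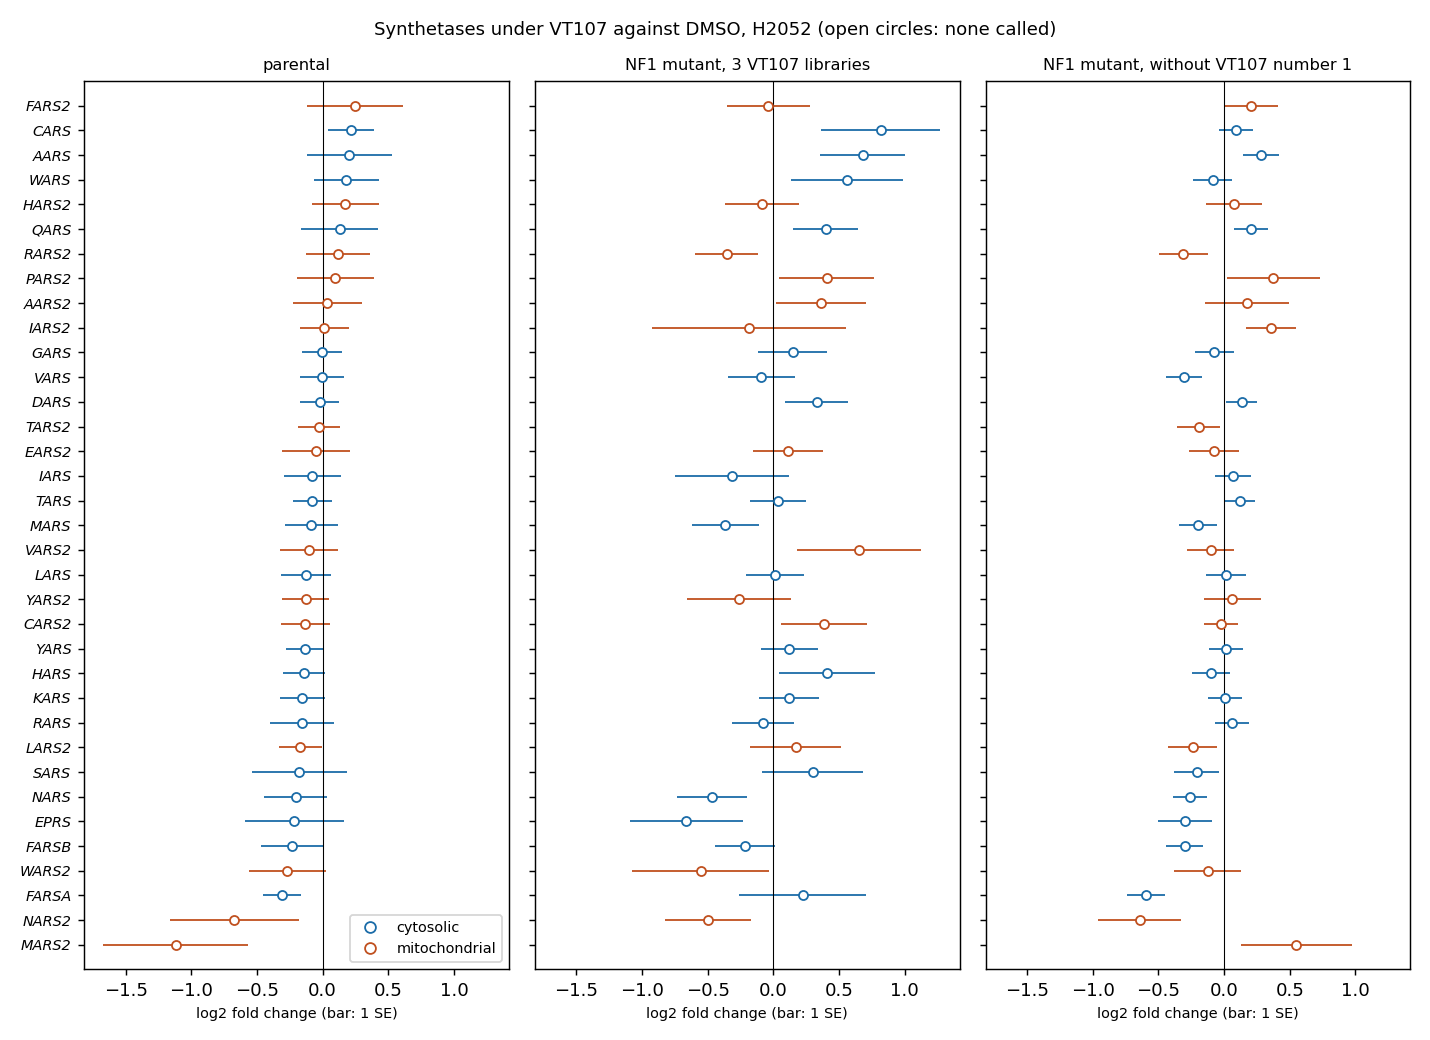
Log2 fold change (VT107 over DMSO) of the synthetases in parental cells, in NF1 mutant cells with all libraries and without VT107 number 1, with bars of 1 standard error and genes in the order of the parental values. None was called in any panel, and the cytosolic and mitochondrial genes are spread on both sides of 0.

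The difference of VT107 responses between genotypes was tested as an interaction. None of 33 synthetases was called, nor any of 11432 genes (0%, with 78 genes and 0 synthetases at an unadjusted p under 0.05), and without VT107 number 1 none of 35 and none of 12167 genes (0%, with 124 genes and 0 synthetases). DESeq2 and voomWithQualityWeights called no gene with all libraries. The values that came closest were VARS2 at 0.78 (standard error 0.55), HARS at 0.57 (standard error 0.42), CARS2 at 0.54 (standard error 0.41) and DARS at 0.37 (standard error 0.28) on the log2 scale, mutant response minus parental response. Without VT107 number 1, VARS2 was no longer among the 4 with the smallest p, which were MARS2 at 1.72 (standard error 0.81), FARSA at -0.27 (standard error 0.21), VARS at -0.29 (standard error 0.22) and RARS2 at -0.43 (standard error 0.33). The FARSA value had the opposite sign with all libraries, at 0.55 (standard error 0.54). These fits did not use the replicate numbers, and with the replicate number as a block no gene was called either.

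Between genotypes in VT107, no synthetase of 33 and no gene of 11654 was called (0%), although 1945 genes and 4 synthetases had an unadjusted p under 0.05. DESeq2 called DARS alone among the synthetases, voomWithQualityWeights called 11, and the fit of all 4 groups called VARS, DARS and YARS. In these 6 libraries VARS was at 34.9, 44.4 and 34.4 CPM in parental and at 101, 71.8 and 62.6 CPM in mutant libraries, with no overlap. DARS was at 219, 210.1 and 237 CPM against 568, 376 and 403 CPM, and YARS at 53.9, 51.8 and 59.2 CPM against 116, 87.6 and 98.3 CPM, also with no overlap. The groups did not overlap for 9 of the 33 synthetases, near the 25.5% of all genes tested. PARS2, the mitochondrial prolyl enzyme, was at 3.69, 2.87 and 3.90 CPM against 6.80, 5.27 and 8.19 CPM. The log2 fold changes were 1.04 (standard error 0.32) for VARS, 1.01 (0.32) for DARS, 0.86 (0.29) for YARS and 0.93 (0.37) for PARS2, with edgeR adjusted p of 0.184, 0.188, 0.210 and 0.261. These samples share no library with the comparison in DMSO. Their column names differ by genotype in the same way, so genotype and library set cannot be told apart here either. The fit of all 4 groups also took its spread from the DMSO libraries.

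Without VT107 number 1, 1.46% of 12573 genes and no synthetase of 35 were called in VT107. DARS, VARS and YARS had log2 fold changes of 0.81, 0.83 and 0.76, and WARS2, GARS and LARS of 1.12, -0.56 and -0.51. Of the mitochondrial genes 14 of 15 were positive, with a median of 0.24, and of the cytosolic genes 8 of 20, with a median of -0.08, against -0.04 over all genes. With all libraries 9 of 13 mitochondrial genes tested were positive, with a median of 0.41, and 11 of 20 cytosolic genes, with a median of 0.32, against -0.02 over all genes. The sign of the cytosolic median turned with this library, as did those of FARSA (0.64 with it and -0.16 without) and CARS (0.29 and -0.43). The cytosolic less the mitochondrial mean was 2.54, 2.83 and 2.62 in parental libraries in VT107, above the 2.33 and 2.24 of mutant numbers 2 and 3 and below the 3.50 of number 1.

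The H226 table, with 1387223 to 1726786 counts per library, is of limited use for these genes. Strand was checked with 20 pairs in which an abundant gene of H2052 (at least 3000 counts over the parental DMSO libraries) lies whole inside a gene of the other strand with at least 20 times fewer counts. In all 20, the H226 counts were higher for the outer gene, which lies on the strand opposite to the gene abundant in H2052. The sources read do not give how H226 reads were assigned to strands. QARS, at 76.4 to 119 CPM in parental H2052 cells in DMSO, had 0 to 3 counts in every H226 library, and VARS 1 to 8. Across the 34 synthetases with a row in both tables, the H226 level in DMSO had a Spearman rho of 0.167 with the parental H2052 level and of 0.691 with the span of the gene on the genome, which in parental H2052 was 0.009. How much of an H226 value comes from the synthetase's own transcript was not resolved here.

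**Figure D5:**
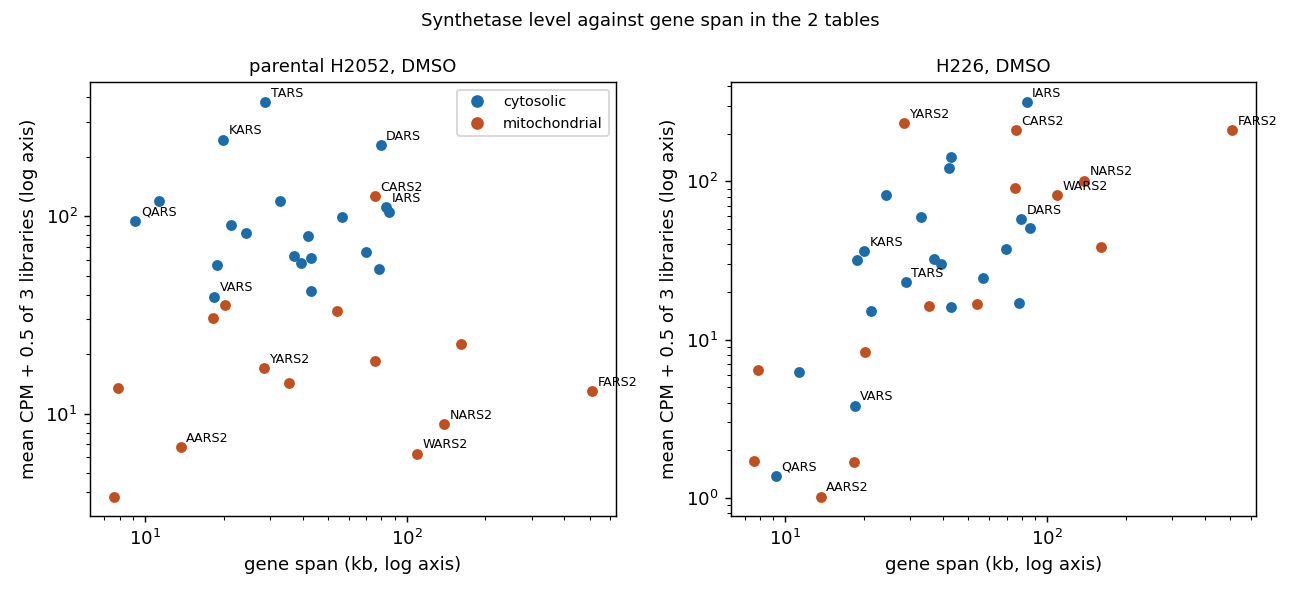
Mean CPM of 3 DMSO libraries plus 0.5 against the span of the gene in kb, both on log axes, for 34 synthetases with a row in both tables, in parental H2052 (left) and H226 (right). In H226 the shortest genes, such as QARS, are lowest and long genes such as FARS2 are high, while parental H2052 shows no such order.

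As deposited, the H226 rows of 9 of the 30 synthetases tested fell in VT107 and none rose. Of 12765 genes, 10.5% were called lower and 9.08% higher. Whether these are changes of synthetase RNA was not resolved. The groups did not overlap for 15 of the 30 synthetases, against 34.8% of all genes tested. IARS was at 327, 322 and 299 CPM in DMSO and at 137, 141 and 154 CPM in VT107, with no overlap and a log2 change of -1.13 (standard error 0.13). AARS was at 32.0, 29.97 and 32.7 CPM against 17.5, 12.7 and 7.21 CPM, a log2 change of -1.32 (standard error 0.27, edgeR adjusted p 0.00111). FARSB (-1.13), NARS2 (-0.91), SARS (-0.85), LARS2 (-0.78), KARS (-0.62), WARS2 (-0.49) and YARS (-0.46) were the other calls. KARS and WARS2 lay near the threshold, at edgeR adjusted p of 0.0446 and 0.0495. A gene of the other strand overlaps LARS2, NARS2, WARS2 and YARS, and 5 of the 16 tested synthetases without such an overlap were called. Without H226 VT107 number 3, 5 synthetases were called. The 4 synthetases with too few counts for the test were QARS, AARS2, PARS2 and VARS2, and MARS2 had no row.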

How the data were processed

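PolyA RNA was sequenced on a NextSeq500 as single-end reads. The authors deposited raw counts per gene, without normalization. The submitters' processing notes name bcl2fastq 2.20.0.422 and the build hg19. Aligner, counting program, library kit and strandedness are missing from the sources read here. The H226 table also holds the authors' fold changes and p-values, which were not used, as were 16 columns of siRNA samples that match no described sample. Counts of repeated IDs were summed.

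A gene entered a test if it reached 0.5 CPM in each library compared. Tests used edgeR 4.0.16 (R 4.3.3), with TMM normalization, the quasi-likelihood test and Benjamini-Hochberg adjustment at 0.05. Standard errors were derived from the log2 fold change and the F statistic, as its size over the root of F. CPM values are TMM-normalized over each table. Alternatives used DESeq2 1.42.0, limma 3.58.1 (voomWithQualityWeights), RLE factors, other filters, a replicate block, each library left out and all 4 H2052 groups in 1 fit. The main fits did not use replicate numbers, which entered as pairs in the replicate block alone. In parental cells the deviations of numbers 1, 2 and 3 correlated by 0.75, 0.618 and 0.874 between treatments. Numbers 1 and 2 also correlated with each other, by 0.624 and 0.749. The values thus set number 3 apart and do not show that numbers 1 and 2 are pairs. The test was tried on simulated data with 200 changed genes. These data had the same spread for all genes, large changes and no library that stands apart. They do not show how the test performs on the libraries used here. Exact permutation over 3 and 3 libraries cannot reach the threshold, and was left out.

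All synthetases are described. Values per library are given for those called in H2052 (up to 8 with the smallest adjusted p, and the ninth where 9 were called) or, where none was, for the 4 with the smallest p, and for a few more chosen after their values were seen. Of those called in H226 they are given for IARS and AARS alone. Of other lists up to 4 genes were named. The members and lists were chosen with earlier results of these data known. Transcript length and GC content came from GENCODE 29 (GRCh38), matched by Ensembl gene ID. Promoters came from RefSeq (GRCh38.p14), matched by symbol, and the promoter positions printed are on that build. The hg19 positions deposited with the counts were used for neither.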

Additional observations from a re-analysis of the deposited data

How the results depend on the processing

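In DMSO, mutant against parental, 9 synthetases were called, and 22 with voomWithQualityWeights, 22 without parental number 3 and 1 in the fit of all 4 groups, with a range of 3 to 22 over single libraries left out. All genes called numbered 3420, and 6551, 6409 and 963 in the same order, with a range of 1779 to 6409 over single libraries. In VT107, mutant against parental, no synthetase was called, and 1 with DESeq2 (682 genes), 11 with voomWithQualityWeights (3625) and 3 in the fit of all 4 groups (1297). Genes alone were called without a filter (196) and without parental number 3 (82), with a range of 0 to 184 over single libraries. For VT107 in parental cells, 32 genes were called with DESeq2, 18 with voomWithQualityWeights, 215 with the replicate block and 44 without the number 3 libraries. For VT107 in mutant cells, 20 were called with DESeq2, 164 with voomWithQualityWeights and 3 in the fit of all 4 groups, with a range of 0 to 198 over single libraries. No synthetase was called in either. In H226, synthetase calls ranged from 5 to 9 and gene calls from 1646 to 2218 over single libraries. The cytosolic less mitochondrial difference in parental VT107 was 2.47 with medians in place of means. The causes were not tested. Signs turned in values that were not called. Without NF1 mutant VT107 number 1, this held for FARSA and the cytosolic median under VT107 in mutant cells, for FARSA, CARS and the cytosolic median between genotypes in VT107, and for FARSA in the difference of responses, among others. Without parental DMSO number 3, the cytosolic median turned from 0.06 to -0.03. For VT107 in parental cells, replicate numbers set number 3 apart and did not show that numbers 1 and 2 are pairs. In the other comparisons they gave no pairing. With the block, GARS (DMSO, edgeR adjusted p 0.0526) lost its call.

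The counts limit low genes such as MARS2 and PARS2, above all in NF1 mutant libraries, which held the fewest counts in H2052. How far H226 counts reflect the synthetase transcripts was not resolved. With 3 libraries a group, a call can rest on 1 library.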
